A study of Homo sapiens with 10 samples.

Results

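The 10 integrin subunit genes ITGA2, ITGA3, ITGA5, ITGA6, ITGAV, ITGB1, ITGB3, ITGB4, ITGB5 and ITGB8 were followed through RNA-seq libraries of glioma cell lines in which the homeobox factor MEOX2 was lowered or raised. They were taken by gene symbol from a table of 34567 genes, and all 10 were among the 17312 genes with enough counts to be tested. SNB19, a human glioblastoma line, carried either Scramble siRNA (NC, 3 libraries) or MEOX2 siRNA (siMEOX2, 3 libraries) by lipofection. U87, another human glioblastoma line, carried an empty vector lentivirus (EV, 2 libraries) or a MEOX2 overexpression lentivirus (OE, 2 libraries), and the study's methods describe its stable lines as selected with puromycin. Both lines grew in DMEM with 10% FBS. Which of the study's siRNAs was used, and whether replicate libraries came from separate cultures, was not given in the sources used here, so the p-values measure the spread between these libraries, which may be technical. For 3 of the 4 U87 libraries the treatment label writes MEOX3, MEOX4 or MEOX5 where the title writes MEOX2, and the groups follow the titles. The bracketed part of the title of OE replicate 1 reads OE-2, as that of OE replicate 2 does, so replicate numbers follow the first part of the titles.

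Integrins are pairs of an alpha and a beta chain that span the membrane, bind the extracellular matrix outside the cell and join the actin cytoskeleton inside it through talin, kindlin and the kinase FAK. ITGB1 pairs with many alpha chains, among them the collagen receptor chain ITGA2, the laminin receptor chains ITGA3 and ITGA6 and the fibronectin receptor chain ITGA5. ITGAV pairs with ITGB1, ITGB3, ITGB5 and ITGB8 to bind matrix proteins with the Arg-Gly-Asp motif, such as vitronectin and fibronectin, and the pair with ITGB8 activates latent TGF-beta. ITGB4 pairs with ITGA6 in the hemidesmosomes of epithelia. In glioma these receptors are known for their part in adhesion to and invasion through the brain's matrix.

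MEOX2 itself followed the labels. It had 249, 224 and 275 counts in the NC libraries and 54, 40 and 49 counts in the siMEOX2 libraries, which was 5.36-fold lower (log2 -2.42, SE 0.148). It had 0 counts in both EV libraries and 4999 and 5308 counts in the OE libraries, at least 1429-fold higher when each EV library is set at a floor of 3 counts. The overexpression therefore started from a line with no detected MEOX2 transcript, while the knockdown started from a line that had it.

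The libraries held 12533775 to 16560324 counts. EV replicate 1 stood apart from the rest. Across genes, its log2 CPM (counts scaled to library size) correlated with that of EV replicate 2 at r = 0.944. Within its own group, each library of the other groups had a highest r of 0.989 to 0.992. The 81 ribosomal protein genes took 13.0% of its counts and 4.05% to 6.69% of those of the other libraries, and its TMM scaling factor was 0.695 against 0.950 to 1.13. Calls of the 10 subunits that rest on it are given with and without it. Of the glial and glioma markers, VIM was at 81.4 to 687 FPKM (fragments per kilobase of gene, scaled to library size) over the 10 libraries. CD44 was at 13.0 to 74.6 FPKM and OLIG2 at 1.13 to 6.50 FPKM. NES was at 3.72 to 10.5 FPKM in SNB19 and at 0.187 to 3.04 FPKM in U87, and FABP7 was at or under 0.431 FPKM in all 10. The astrocyte markers GFAP and S100B were at or under 0.397 FPKM in all 10, and the stem cell marker SOX2 was at 5.18 to 14.4 FPKM in SNB19 and at or under 0.0952 FPKM in U87. Of the other cell types that use these integrins, the leukocyte marker PTPRC did not pass 0.0278 FPKM. The leukocyte and microglia markers AIF1, CX3CR1 and CD14 reached 0.0946, 0.0330 and 0.966 FPKM at most. The epithelial markers EPCAM and CDH1 did not pass 0.735 FPKM, and the epithelial keratin KRT8 was at 24.1 to 45.0 FPKM in SNB19 and at or under 0.3328 FPKM in U87. The marker calls are to be read against all genes tested, of which 8.4% fell and 6.74% rose after knockdown. After overexpression 14.4% fell and 10.9% rose. Of the glial and glioma markers tested, 4 of 7 fell after knockdown, and 2 fell and 1 rose after overexpression. Of the 4 endothelial markers, at most 4.59 FPKM, 2 fell in each comparison. Only 1 leukocyte or microglia marker could be tested, and it fell after knockdown and did not pass after overexpression. Of the 3 epithelial markers tested, 1 rose after knockdown and 1 fell after overexpression. The platelet marker GP1BA, at 2.23 to 3.53 FPKM in SNB19, did not pass in either. These marker calls use all 10 libraries. The log2 fold change of GP1BA after overexpression was -1.22, and -1.68 without EV replicate 1. The median of the epithelial markers was 0.10, and 1.24 without EV replicate 1. The part of these markers in the results was not tested.

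The departure of EV replicate 1 moved with gene length and reached most of the integrin subunits. Its log2 CPM minus that of EV replicate 2 had a median of 1.02 over 1083 genes of 1 to 2 kb and of -0.72 over 2395 genes longer than 8 kb. The 10 integrin genes are 4394 to 15156 bases long. The same difference was -2.79 for ITGB3, -2.12 for ITGB1, -1.64 for ITGA2 and -1.38 for ITGAV, and between -0.83 and 0.12 for the others except ITGB4, where it was 1.18 on 30 against 12 counts. For ITGA3 and ITGB8 it was -0.51 and -0.83. ITGB3, ITGB1 and ITGA2 are 4394, 6011 and 7910 bases long, in the class with a median of -0.18, and lay far below that median. The OE libraries differed by at most 0.26 in size for any subunit. What set EV replicate 1 apart was not tested.

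**Figure D1:**
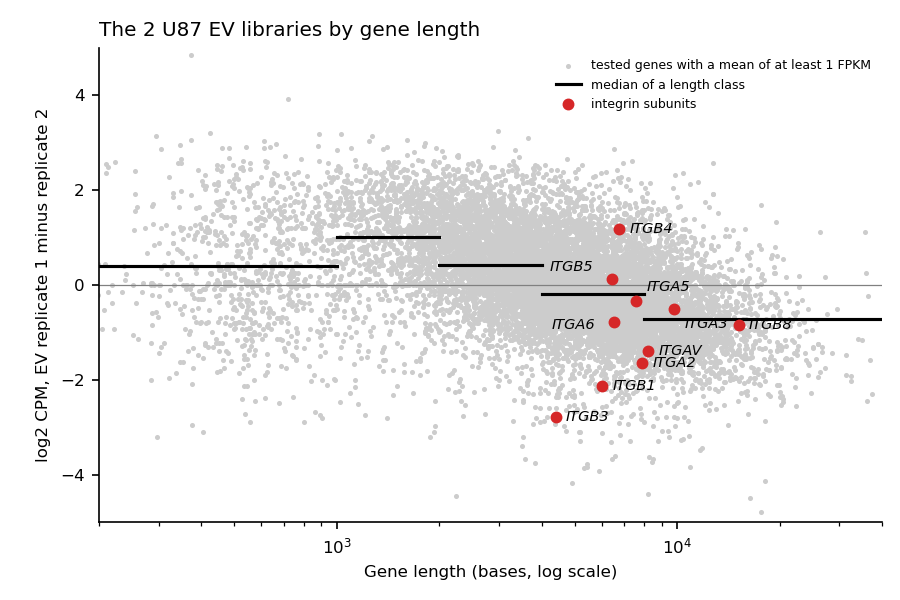
Each grey point is a tested gene with a mean of at least 1 FPKM, by gene length in bases (log scale) and by log2 CPM in EV replicate 1 minus EV replicate 2, with black lines at the median of each length class and the integrin subunits in red. The medians pass from 1.02 at 1 to 2 kb to -0.72 above 8 kb, and ITGB3 and ITGB1 lie at -2.79 and -2.12.

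The subunit genes lie on 7 chromosomes of GRCh38 (GENCODE 29). ITGA3, ITGB3 and ITGB4 lie on chromosome 17, at 50055968 to 50090481, 47253846 to 47311816 and 75721328 to 75757818. ITGA6 (172427354 to 172506282) and ITGAV (186590065 to 186680901) lie on chromosome 2. ITGA2 lies on chromosome 5 (52989326 to 53094779), ITGA5 on chromosome 12 (54395261 to 54419460), ITGB1 on chromosome 10 (32900319 to 33005792), ITGB5 on chromosome 3 (124761948 to 124901418) and ITGB8 on chromosome 7 (20330702 to 20415754). The exons of ITGB3 share 51.6% of their bases with AC068234.1, a gene on the same strand that is not in the count table, so reads in that stretch may not have been credited to ITGB3. The other subunits share at most 5.37% of their exon bases with another gene. The gene lengths that follow from the table's counts and FPKM equal the summed exon lengths of GENCODE 29 for all 10.

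RefSeq promoter sequences were at hand for 7 of the 10 subunits, as 12 windows of 250 bases before a transcription start. ITGA3, ITGB3 and ITGB4 are named only. The sequences below stand for a subunit lower after knockdown and after overexpression (ITGB8), one lower after overexpression (ITGA5) and one near the threshold after knockdown (ITGA2). Each runs 5′ to 3′ on the gene's strand up to the outermost start in GENCODE 29, so that no transcribed base is shown, and capitals mark the GC box GGGCGG or its reverse complement. They are chr5:52989102-52989325 on the plus strand, chr12:54419461-54419516 on the minus strand and chr7:20330650-20330701 on the plus strand of GRCh38.p14.
ITGA2: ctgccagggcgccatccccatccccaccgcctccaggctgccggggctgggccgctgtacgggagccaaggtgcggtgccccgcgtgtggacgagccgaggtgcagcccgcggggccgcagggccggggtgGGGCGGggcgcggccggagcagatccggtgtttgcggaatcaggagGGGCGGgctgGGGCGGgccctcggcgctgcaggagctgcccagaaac
ITGA5: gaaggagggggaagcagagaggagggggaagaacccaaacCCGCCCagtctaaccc
ITGB8: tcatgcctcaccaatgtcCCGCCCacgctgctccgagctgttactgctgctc
Over the full windows, on both strands, the GC box was found in 7 of the 12 and in 42.6% of all 35116 windows of the same length. The TEAD letters GGAATG were found in 2 (11.9% of all windows) and the E-box CACGTG in 1 (6.34%). The AP-1 letters TGANTCA (6.57% of all windows) and the homeodomain core TAATTA (4.35%) were found in 0 of the 12, which says only that these letters are not in these windows.

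SNB19 NC cells carried most transcript of the laminin receptor chain ITGA3, at 82.8 ± 1.94 FPKM (SD, n = 3), and of its partner ITGB1, at 67.9 ± 2.74 FPKM. ITGA5 (34.8 ± 0.949 FPKM), ITGAV (29.02 ± 0.671), ITGB5 (21.3 ± 0.330), ITGA6 (17.1 ± 0.263) and ITGB4 (10.9 ± 0.509) followed. ITGA2 (5.29 ± 0.456 FPKM), ITGB3 (4.36 ± 0.290) and ITGB8 (0.806 ± 0.01998) were lowest. The level of ITGB3 may be too low here and below, since reads in its shared exon bases may not have been credited to it. No neighbours in this order overlapped among the 3 libraries. In siMEOX2 cells ITGB1 (78.1 ± 3.71 FPKM) stood above ITGA3 (38.5 ± 1.29), and ITGB3 (4.27 ± 0.128) above ITGA2 (2.84 ± 0.295). The ranges of ITGA6 and ITGB4 overlapped there.

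In U87 OE cells the order was ITGB1 (165 ± 0.658 FPKM, n = 2), ITGA3 (82.2 ± 2.50), ITGA5 (64.2 ± 2.74), ITGAV (25.4 ± 1.61), ITGB5 (20.4 ± 0.0415), ITGB3 (16.5 ± 2.22), ITGA2 (5.81 ± 0.123), ITGA6 (2.48 ± 0.152), ITGB4 (0.186 ± 0.0204) and ITGB8 (0.0891 ± 0.0143), with no overlap between neighbours. In U87 EV cells ITGA3 led at 165 and 321 FPKM. There the ranges of most neighbours overlapped, since EV replicate 1 gave 30.2 FPKM for ITGB1 and EV replicate 2 gave 181 FPKM. The epithelial partner ITGB4 was at 10.4 to 14.4 FPKM in the 6 SNB19 libraries and at or under 0.275 FPKM in the 4 U87 libraries, which rests on 12 to 30 counts.

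**Figure D2:**
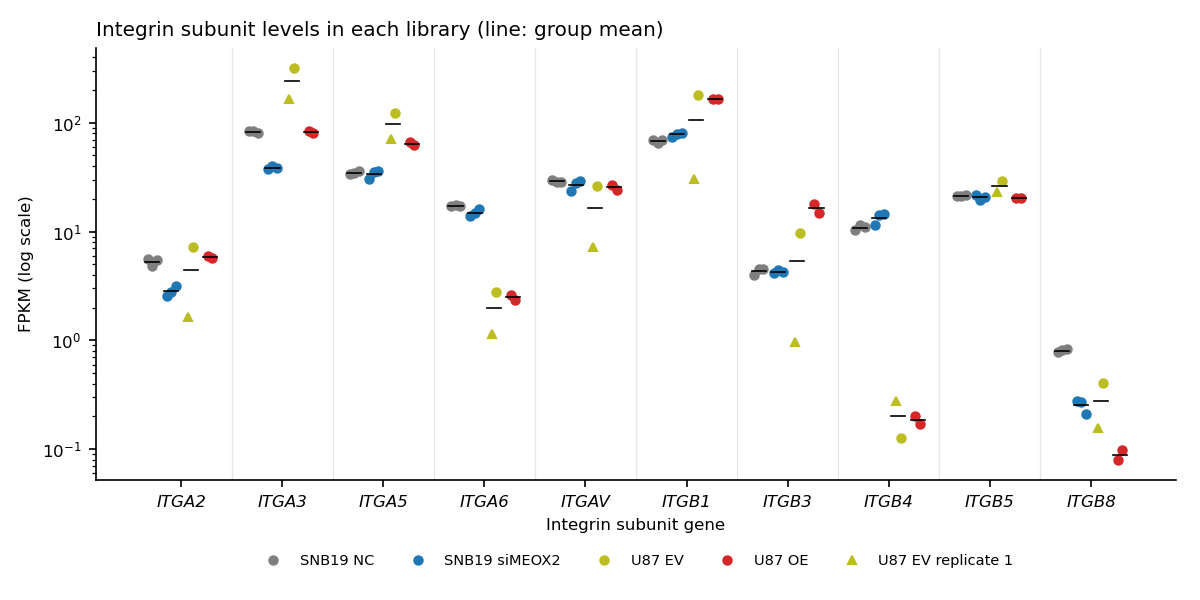
FPKM (log scale) of each integrin subunit gene in each of the 10 libraries, coloured by group, with a line at the group mean and a triangle for EV replicate 1. ITGA3 and ITGB8 are lower in siMEOX2 than in NC libraries and lower in OE than in both EV libraries, and ITGB4 is near the bottom of the plot in U87 only.

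Knockdown of MEOX2 in SNB19 was compared to ask which subunits move when the factor is lowered. ITGA3 and ITGB8 fell and the remaining subunits did not pass the threshold of the fit over all 10 libraries. This was edgeR's quasi-likelihood test with Benjamini-Hochberg adjustment over all genes tested, and every adjusted p-value of a fold change comes from it. ITGA3 was at 83.7, 84.2 and 80.6 FPKM in NC libraries and at 37.3, 39.9 and 38.2 FPKM in siMEOX2 libraries. The groups lay far apart, and ITGA3 was 2.29-fold lower (log2 fold change -1.20, SE 0.156, adjusted p = 0.00178). ITGB8, the chain of the TGF-beta activating receptor, was at 0.785, 0.808 and 0.825 FPKM in NC and at 0.277, 0.271 and 0.211 FPKM in siMEOX2 libraries. It rests on 168 to 197 counts against 45 to 66, did not overlap, and was 3.38-fold lower (log2 -1.76, SE 0.239, adjusted p = 0.00221). In bulk RNA, fewer cells that express a gene and less of its RNA per cell cannot be told apart.

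Beyond these, the collagen receptor chain ITGA2 gave 5.65, 4.77 and 5.43 FPKM in NC and 2.58, 2.78 and 3.16 FPKM in siMEOX2 libraries. These groups did not overlap either, but the log2 fold change of -0.99 (SE 0.334) had an adjusted p of 0.0795. The other 7 subunits had log2 fold changes between -0.29 (ITGA6) and 0.20 (ITGB4), with adjusted p-values of 0.322 (ITGA6) to 0.924 (ITGB3). So 2 of the 10 subunits passed the threshold as lower, where 8.4% of all genes tested did, and 0 passed as higher, where 6.74% did. The median log2 fold change over the 10 was -0.16, beside -0.0013 over all genes tested.

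That fit shares 1 estimate of the spread over both lines, and the spread of the EV libraries enters it. Fitted on the 6 SNB19 libraries alone, the fold changes were nearly the same, their errors were smaller and 7 of the 10 passed. ITGA2 (log2 -0.98, SE 0.0881, adjusted p = 7.5e-09), ITGA6 (-0.28, SE 0.0584, adjusted p = 0.000387) and ITGAV (-0.19, SE 0.0605, adjusted p = 0.0122) joined ITGA3 and ITGB8 as lower. ITGB1 (0.12, SE 0.0484, adjusted p = 0.0337) and ITGB4 (0.21, SE 0.074, adjusted p = 0.0187) were higher. In that fit 28.5% of all genes tested passed as lower and 27.4% as higher, against which 5 and 2 of 10 are to be read. Leaving out EV replicate 1 or EV replicate 2 from the fit over all libraries raised the count from 2 to 6 in each case, while the share of all genes called rose from 15.1% to 47.2% and 47.3%.

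**Figure D3:**
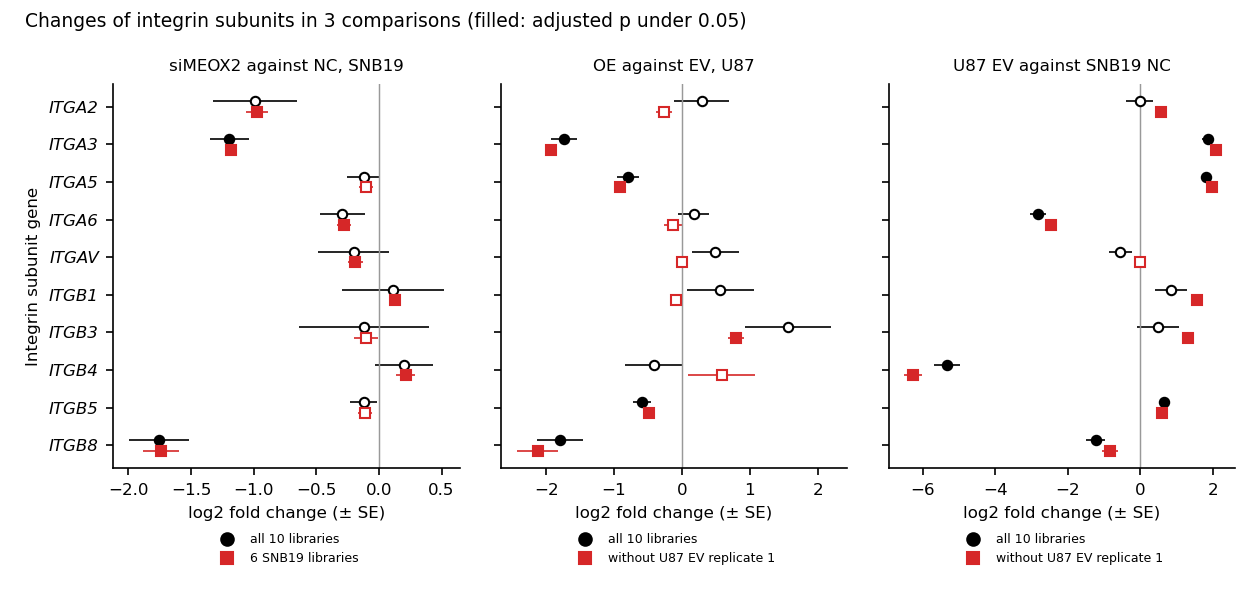
Log2 fold change ± SE of each subunit in the knockdown, the overexpression and the baseline comparison, in the fit over all 10 libraries (black) and in a second fit (red, 6 SNB19 libraries for the knockdown and without EV replicate 1 for the others), with filled symbols past the threshold. ITGA3 at -1.20 and -1.74 and ITGB8 at -1.76 and -1.79 lie left of zero in both MEOX2 comparisons.

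Overexpression of MEOX2 in U87 asked the converse. ITGA3, ITGA5, ITGB5 and ITGB8 fell, and 0 subunits rose past the threshold in the fit over all 10 libraries. ITGA3 was at 165 and 321 FPKM in EV and at 84.0 and 80.5 FPKM in OE libraries. Both EV libraries lay above both OE libraries, and ITGA3 was 3.34-fold lower (log2 -1.74, SE 0.194, adjusted p = 0.000481). ITGA5, the fibronectin receptor chain, was at 71.5 and 124 FPKM in EV and at 66.2 and 62.3 FPKM in OE libraries, with log2 -0.79 (SE 0.163, adjusted p = 0.00868). In FPKM the lower EV library was only just above the OE libraries, while TMM-scaled CPM, the scale of the test, was 779 and 985 in EV and 520 and 497 in OE libraries for ITGA5.

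ITGB5, a vitronectin receptor chain, was at 23.2 and 29.3 FPKM in EV and at 20.4 FPKM in each OE library, 1.50-fold lower (log2 -0.59, SE 0.13, adjusted p = 0.012). ITGB8 was at 0.155 and 0.404 FPKM in EV and at 0.0790 and 0.0992 FPKM in OE libraries, which rests on 38 and 86 against 15 and 22 counts. Its groups did not overlap, and it was 3.47-fold lower (log2 -1.79, SE 0.336, adjusted p = 0.00595). So 4 of the 10 subunits passed as lower, where 14.4% of all genes tested did, and 0 as higher, where 10.9% did. The median over the 10 was a log2 fold change of -0.12, beside -0.02 over all genes tested.

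ITGB3, the chain that pairs with ITGAV in the classical vitronectin receptor, was at 0.958 and 9.73 FPKM in EV and at 18.1 and 14.9 FPKM in OE libraries. Both OE libraries lay above both EV libraries, yet the EV libraries were far apart and the log2 fold change of 1.57 (SE 0.637) had an adjusted p of 0.0986. Without EV replicate 1 it was 0.79 (SE 0.119, adjusted p = 1.91e-06), and without EV replicate 2 it was 3.67. The remaining subunits, ITGA2, ITGA6, ITGAV, ITGB1 and ITGB4, had log2 fold changes between -0.41 (ITGB4) and 0.57 (ITGB1) and adjusted p-values of 0.319 to 0.615.

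Without EV replicate 1, the same 4 subunits were lower and ITGB3 was higher, and 18.5% of all genes tested passed as lower and 20.4% as higher. The log2 fold changes were then -1.93 for ITGA3 (SE 0.0787), -0.91 for ITGA5 (SE 0.0838), -0.48 for ITGB5 (SE 0.0856) and -2.12 for ITGB8 (SE 0.307). ITGAV stood at 0.00 and ITGB1 at -0.09 in that fit, with adjusted p-values of 1 and 0.418. The lone EV library left is assumed to vary like the libraries of the other groups. Without EV replicate 2, all 10 subunits and 59.5% of all genes passed, with ITGB1 at 2.02 and ITGAV at 1.38 among the higher ones, so that calls of those subunits depend on which EV library is kept. Without OE replicate 1 only ITGA3 passed of the 10 (log2 -1.76), where 8% of all genes did, and without OE replicate 2 ITGA3 and ITGB8 passed (log2 -1.72 and -1.98), where 8.47% did.

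Fitted on the 4 U87 libraries alone, 0 of the 10 subunits and 0 of all genes passed (smallest adjusted p = 0.141 by edgeR). In that fit 2 of the 10 subunits, ITGA3 and ITGB8, had an unadjusted p under 0.05, where 2503 of 14180 genes did. DESeq2 over all 10 libraries called 5 of the 10 subunits, where 30.9% of all genes passed. The calls in U87 therefore rest on a spread estimated with the SNB19 libraries.

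The effects of MEOX2 in the 2 lines were compared directly by setting OE minus EV against NC minus siMEOX2, so that both run from low to high MEOX2. In this direction ITGA3 and ITGB8 were higher with MEOX2 in SNB19 and lower with it in U87, and the difference between lines was a log2 value of -2.93 for ITGA3 (SE 0.25, adjusted p = 0.000106) and -3.55 for ITGB8 (SE 0.412, adjusted p = 0.000521). ITGA5 (-0.92, SE 0.21, adjusted p = 0.0135) and ITGB5 (-0.71, SE 0.167, adjusted p = 0.0152) also differed, and their knockdown values in SNB19 were both -0.12. These 4 of the 10 passed as lower, where 13.8% of all genes tested did, and 0 as higher, where 9.94% did.

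Without EV replicate 1, 6 subunits passed as lower, where 21.8% of all genes did, and ITGB3 passed as higher (0.68, SE 0.151, adjusted p = 0.000375), where 21.3% did. The subunits added were ITGA2 (log2 -1.25, SE 0.146, adjusted p = 1.36e-08) and ITGA6 (-0.42, SE 0.149, adjusted p = 0.021). Without EV replicate 2 the count was 9, where 56.8% of all genes passed, and without OE replicate 1 or OE replicate 2 it was 2, where 11.6% and 12.1% did. ITGB5 no longer passed without siMEOX2 replicate 2 (log2 -0.66). As background, 452 genes were called lower in both MEOX2 comparisons, 31.1% of those lower in the knockdown and 18.1% of those lower in the overexpression, and ITGA3 and ITGB8 are 2 of them.

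The baseline comparison set U87 EV against SNB19 NC. Line, vector and transfection differ together there and cannot be told apart. U87 EV cells carried more ITGA3 (3.65-fold, log2 1.87, SE 0.171, adjusted p = 2.11e-05), ITGA5 (3.53-fold, log2 1.82, SE 0.146, adjusted p = 9.39e-06) and ITGB5 (1.59-fold, log2 0.67, SE 0.117, adjusted p = 0.0012). They carried less of both chains of the hemidesmosome receptor. ITGA6 was at 17.0, 17.5 and 17.0 FPKM in NC and at 1.16 and 2.79 FPKM in EV libraries, 7.07-fold lower (log2 -2.82, SE 0.228, adjusted p = 1.08e-05). ITGB4 was at 10.4, 11.4 and 10.9 FPKM in NC and at 0.275 and 0.126 FPKM in EV libraries, 39.9-fold lower (log2 -5.32, SE 0.36, adjusted p = 3.71e-06). Its EV value rests on 30 and 12 counts, and the log2 fold change was -6.26 without EV replicate 1 (76.9-fold lower) and -4.68 without EV replicate 2. ITGB8 was 2.35-fold lower (log2 -1.23, SE 0.271, adjusted p = 0.00426).

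In all, 3 of the 10 subunits were higher in U87 EV, where 28.6% of all genes tested were, and 3 were lower, where 27.9% were. Without EV replicate 1, 6 were higher, where 31% of all genes were, and 3 lower, where 32.5% were. The subunits added as higher were ITGB1 (log2 1.56, SE 0.0733, adjusted p = 1.59e-18), ITGB3 (1.31, SE 0.116, adjusted p = 1.38e-11) and ITGA2 (0.59, SE 0.11, adjusted p = 2.37e-05). Without EV replicate 2 those subunits pointed the other way, at -0.54, -1.55 and -1.05, and all 10 subunits and 73.7% of all genes passed. The direction of ITGB1, ITGB3 and ITGA2 between the lines was therefore not fixed by these libraries, while ITGA3, ITGA5, ITGB5, ITGA6, ITGB4 and ITGB8 passed in the same direction with either EV library left out. Without EV replicate 1 their log2 fold changes were 2.10 (ITGA3), 1.98 (ITGA5), 0.61 (ITGB5), -2.47 (ITGA6), -6.26 (ITGB4) and -0.84 (ITGB8).

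Within a library, the share of each chain in the summed FPKM of its class does not depend on the scaling between libraries. Among the 5 alpha chains, ITGA3 took 49.2%, 49.7% and 48.1% in NC and 34.6%, 33.0% and 31.1% in siMEOX2 libraries. The groups did not overlap, with means of 49.0% ± 0.823 and 32.9% ± 1.76 (SD, n = 3 each), a difference of -16.1 percentage points (two-sided exact permutation test, p = 0.1, the smallest that 3 against 3 allow). In U87 it took 66.9% and 66.7% in EV and 45.4% and 46.0% in OE libraries, a difference of -21.2 points (two-sided exact permutation test, p = 0.3333, the smallest that 2 against 2 allow). Here both EV libraries gave nearly the same share. The mean share of ITGA5 was 20.6% in NC and 29.04% in siMEOX2, and 27.4% in EV and 35.6% in OE. That of ITGAV was 17.2% in NC and 22.9% in siMEOX2, and 4.17% in EV and 14.1% in OE. The groups did not overlap in either line for any of the 5 alpha chains, ITGA2 and ITGA6 included. The difference between OE and EV was 8.24 points for ITGA5 and 9.92 points for ITGAV, and 9.87 and 8.69 points without EV replicate 1. Shares within a class have a fixed sum, so a fall of ITGA3 alone raises those of the other chains. Mean FPKM of ITGA5 was 34.8 in NC and 34.1 in siMEOX2, and 97.6 in EV and 64.2 in OE. That of ITGAV was 29.02 in NC and 26.9 in siMEOX2. In U87, ITGAV was at 7.24 and 25.96 FPKM in EV replicates 1 and 2 and at 26.5 and 24.3 FPKM in OE libraries.

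Among the 5 beta chains, ITGB1 took 64.5% ± 1.43 in NC and 66.9% ± 0.612 in siMEOX2 libraries (n = 3 each, difference 2.37 points, exact permutation p = 0.1). In OE libraries it took 81.1% and 82.2%. EV replicate 2 gave 82.0% and EV replicate 1 gave 55.2%, so that the difference between OE and EV was 13.0 points with both and -0.40 points without EV replicate 1. Among the beta chains that pair with ITGAV besides ITGB1, ITGB3 took 16.5% ± 0.780 in NC and 16.9% ± 1.17 in siMEOX2 libraries, which overlapped (n = 3 each, exact permutation p = 0.6). It took 3.94% and 24.7% in EV and 46.9% and 42.1% in OE libraries, a difference of 30.2 points with both EV libraries and of 19.8 points without EV replicate 1 (two-sided exact permutation test with both, p = 0.3333, the smallest possible). Its counterpart ITGB5 took 95.4% and 74.3% in EV and 52.9% and 57.6% in OE libraries. Reads in shared exon bases may not have been credited to ITGB3, which would make its share too small. ITGB8 took 3.05% ± 0.0126 in NC and 1.00% ± 0.151 in siMEOX2 libraries (n = 3 each, exact permutation p = 0.1). The 13 chain shares were each compared in 3 ways, 39 comparisons in all, and since the exact test cannot go under 0.1 in any of them, no adjusted value was formed.

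**Figure D4:**
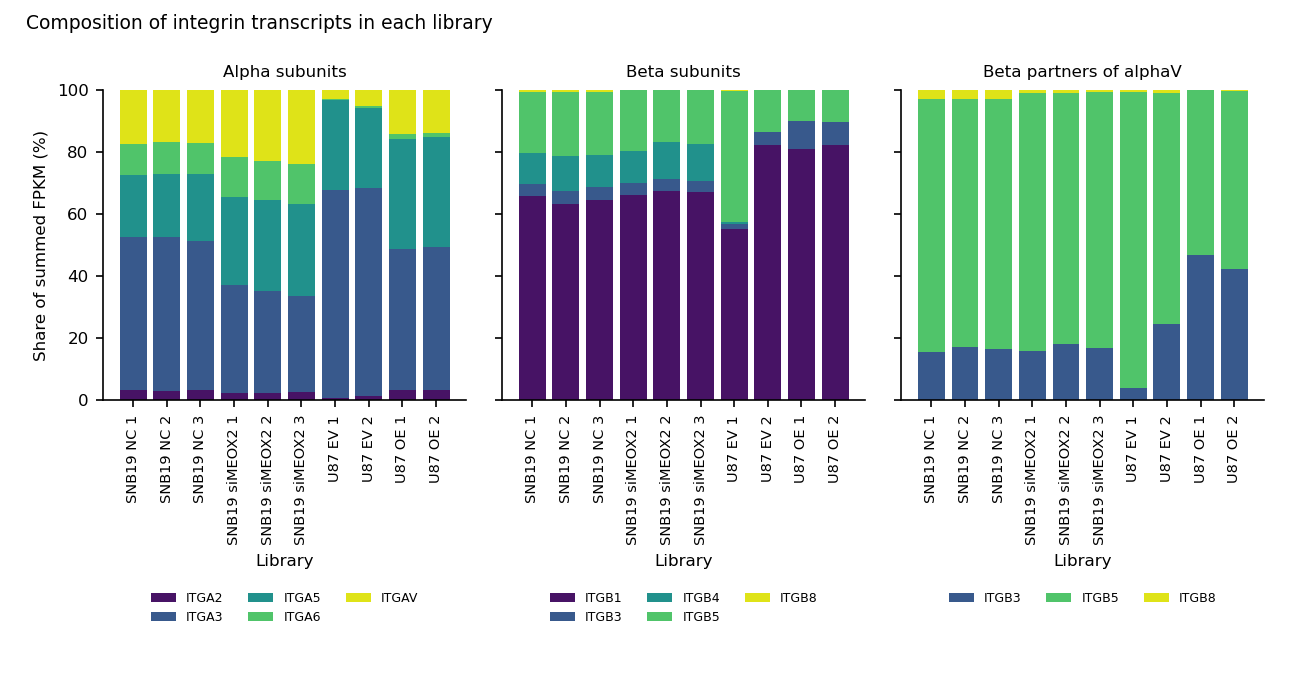
Share of summed FPKM (%) of each alpha chain, each beta chain and each beta partner of alphaV other than ITGB1, stacked for each of the 10 libraries. The ITGA3 band covers 48.1% to 49.7% in NC, 31.1% to 34.6% in siMEOX2, 66.7% to 66.9% in EV and 45.4% to 46.0% in OE libraries.

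The other genes of the pathway were counted by list, to be read against the shares of all genes tested that passed. These were 8.4% lower and 6.74% higher after knockdown (28.5% and 27.4% on SNB19 alone), and 14.4% lower and 10.9% higher after overexpression (18.5% and 20.4% without EV replicate 1). Fold changes of single genes in the lists come from the fit over all 10 libraries.

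Of the 16 integrin subunit genes outside these 10, 11 could be tested. After knockdown 4 fell, 1 rose and 6 did not pass, with a median log2 fold change of -0.36. ITGA7, a laminin receptor chain, fell from 18.6 to 7.94 FPKM (log2 -1.32, SE 0.108, adjusted p = 0.000229), ITGAX fell from 2.10 to 1.05 FPKM (log2 -1.09, SE 0.149, adjusted p = 0.00216), and the leukocyte chain ITGB2 rose from 0.687 to 1.29 FPKM (log2 0.81, SE 0.219, adjusted p = 0.0376). After overexpression 2 rose and 1 fell, with a median of -0.11 (2 rose and 3 fell of 12 tested without EV replicate 1, median -0.31). ITGA7 fell from 12.1 to 3.71 FPKM (log2 -1.91, SE 0.135, adjusted p = 6.07e-05) and ITGAX rose from 0.533 to 1.41 FPKM (log2 1.20, SE 0.191, adjusted p = 0.00274). These log2 values were -1.90 and 1.11 without EV replicate 1.

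Of 30 matrix and cell surface ligands of integrins, 26 could be tested. After knockdown 11 fell and 3 rose (median log2 -0.64), and after overexpression 8 fell and 2 rose (median -0.37, and 11 fell and 4 rose without EV replicate 1, median -0.23). LAMA5, a laminin chain bound by the ITGA3 receptor, fell from 50.5 to 10.0 FPKM after knockdown (log2 -2.43, SE 0.206, adjusted p = 0.000307) and from 14.9 to 2.17 FPKM after overexpression (log2 -2.94, SE 0.259, adjusted p = 0.000169). L1CAM, an adhesion molecule of neurons, fell from 11.2 to 1.72 FPKM after knockdown (log2 -2.78, SE 0.221, adjusted p = 0.000213), and the collagen chain COL1A1 fell from 133 to 14.2 FPKM after overexpression (log2 -3.38, SE 0.273, adjusted p = 0.000118). The matricellular ligand CYR61 (CCN1) rose in both, from 101 to 403 FPKM after knockdown (log2 1.90, SE 0.126, adjusted p = 0.000101) and from 14.6 to 34.4 FPKM after overexpression (log2 1.02, SE 0.153, adjusted p = 0.00202). The bone and matrix glycoprotein SPP1 also rose in both, with log2 values of 0.49 and 1.00 (adjusted p = 0.0326 and 0.00195). The overexpression values without EV replicate 1 were -3.26 for LAMA5, -3.69 for COL1A1, 1.07 for CYR61 and 1.21 for SPP1.

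Of 40 genes of the focal adhesion core and its signalling, 39 could be tested. After knockdown 11 fell and 1 rose (median log2 -0.33), and 25 fell and 6 rose in the fit on SNB19 alone. After overexpression 6 fell and 2 rose (median -0.04), and 18 fell and 5 rose without EV replicate 1 (median -0.24, beside 0.05 over all genes tested). The actin crosslinker FLNA fell from 542 to 247 FPKM after knockdown (log2 -1.22, SE 0.163, adjusted p = 0.00192). The tensin TNS2, which links integrin tails to actin, fell in both comparisons, with log2 values of -1.28 and -1.91 (adjusted p = 0.00114 and 0.000294). The adaptor LIMS1, a partner of the integrin-linked kinase, rose from 13.1 to 61.3 FPKM after overexpression (log2 2.06, SE 0.219, adjusted p = 0.000399). TNS2 stood at -1.90 and LIMS1 at 1.79 after overexpression without EV replicate 1.

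All 16 membrane partners of integrins were tested. After knockdown 7 fell and 2 rose (median log2 -0.63), and 14 fell and 2 rose in the fit on SNB19 alone. After overexpression 6 fell and 1 rose (median -0.56), and 8 fell and 3 rose without EV replicate 1 (median -0.41). The amino acid transporter chain SLC3A2 (CD98), which binds beta chains, rose in both, by log2 values of 1.17 and 1.48 (adjusted p = 0.00425 and 0.00258). The proteoglycan SDC1 fell in both, with log2 values of -1.07 and -1.96 (adjusted p = 0.000884 and 8.84e-05). SDC4, a syndecan of focal adhesions, rose after knockdown (log2 1.66, SE 0.122, adjusted p = 0.000147) and the tetraspanin CD82 fell after it (log2 -1.61, SE 0.122, adjusted p = 0.000155). Of 15 genes for integrin inhibition and trafficking, 13 could be tested, and 2 fell and 1 rose after knockdown and 2 fell and 2 rose after overexpression (4 fell and 3 rose without EV replicate 1). The endosomal GTPase RAB5A rose in both, with log2 values of 0.44 and 0.56 (adjusted p = 0.0229 and 0.0136). With EV replicate 1 left out, SLC3A2 stood at 1.96, SDC1 at -1.78 and RAB5A at 0.54 after overexpression.

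In the baseline comparison 13 of the 16 membrane partners were higher in U87 EV and 1 was lower, where 28.6% and 27.9% of all genes tested were (median log2 1.14, beside -0.03 over all genes). Without EV replicate 1 it was 14 higher and 1 lower, where 31% and 32.5% of all genes were, with a median of 0.59 beside -0.09. Of the other integrin subunits 3 were higher and 4 lower, and of the ligands 7 and 12. Of the focal adhesion genes 12 were higher and 10 lower, and of the inhibition and trafficking genes 7 and 2. The median log2 fold changes of these lists, in this order, were 0.25, -0.17, -0.05 and 0.55. Without EV replicate 1 they were 0.0026, -0.09, 0.21 and 0.64. FLNC, a filamin of muscle and of migrating cells, was at 0.416 FPKM in NC and 126 FPKM in EV libraries (log2 8.54, SE 0.375, adjusted p = 4.51e-07). The basement membrane gene NID1 (34.2 against 0.0884 FPKM) and L1CAM (11.2 against 0.0134 FPKM) were lower in EV, with log2 values of -8.16 and -9.20 and adjusted p-values of 2.2e-07 and 5.78e-07. They were 8.89 for FLNC, -8.96 for NID1 and -9.85 for L1CAM without EV replicate 1.

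ITGA3 had the smallest adjusted p of the 10 in both MEOX2 comparisons, and the genes with the most similar profile to it were sought. Likeness was the root mean square difference of gene-centred log2 CPM over the 10 libraries, among 13913 genes with at least 1 FPKM in at least 2 libraries. The closest were CALHM2 (0.232), an ion channel gene, SSC5D (0.246), a secreted scavenger receptor gene, and the tubulin gene TUBB6 (0.310). Each was lower after knockdown and after overexpression, with log2 values of -0.91 and -1.24 for CALHM2, -1.70 and -2.07 for SSC5D and -0.83 and -1.15 for TUBB6. These genes were chosen for their likeness to ITGA3 over the same libraries, so falls like those of ITGA3 follow from the choice. The points share libraries, and the likeness is a description of these 10.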

How the data were processed

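RNA was sequenced from 10 libraries of 2 glioma lines. The submitters' processing notes name HISAT2, HTSeq 0.11.2, DESeq2 1.26.0 and GRCh38, and HTSeq's strand and overlap settings are not given in the sources used here. The authors deposited raw read counts per gene and FPKM, which equal the count divided by gene length and column total (all nonzero values within 0.1%). FPKM served for levels and shares, and counts for tests.

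edgeR 4.0.16 in R 4.3.3 fitted the 4 groups in 10 libraries (TMM, filterByExpr, robust quasi-likelihood) with Benjamini-Hochberg adjustment over 17312 genes and a threshold of 0.05. SEs are the log2 fold change over the root of F. The scripts were tested on simulated data. limma 3.58.1 and DESeq2 1.42.0 served as alternatives, as did RLE scaling, no filter, FPKM pseudocounts of 1 and 0.1, a replicate block and leaving out each library. Shares were tested by exact permutation.

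Counting error within groups was exceeded in every pair of libraries (chi-square per degree of freedom 2.06 to 6.56, and 280 for EV), so no library was a copy of another. The 3 same-numbered pairs of SNB19 libraries had correlated deviations of 0.043, 0.0026 and 0.059, and the U87 pairs of -0.16. With 2 libraries a group the U87 pairs must give the same value, so they cannot decide on a pairing. Numbers were not treated as pairs. Named were the 10 subunits and, from each of 5 lists, up to 3 called genes per direction with the largest fold change and a group mean of at least 1 FPKM, of which the text gives a selection. The subunits and the lists were chosen with earlier results of these data known. CYR61 and CTGF were matched to CCN1 and CCN2 by Ensembl ID.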

Additional observations from a re-analysis of the deposited data

Results flagged for a closer look

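The effect of MEOX2 differed between the lines for 4 subunits, by the interaction contrast of edgeR's quasi-likelihood fit, as OE minus EV in U87 less NC minus siMEOX2 in SNB19. The log2 difference was -2.93 for ITGA3, -0.92 for ITGA5, -0.71 for ITGB5 and -3.55 for ITGB8. For ITGA3 and ITGB8 the 3 siMEOX2 libraries were below the 3 NC libraries and the 2 OE libraries were below the 2 EV libraries. For ITGA5 and ITGB5 the SNB19 groups overlapped. Knockdown and overexpression differ in line, delivery and duration as well as in direction, and these cannot be told apart. No group was large enough for a test of single outlying libraries.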

How the results depend on the processing

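Of 752 log2 fold changes of subunits under alternatives, 653 kept their direction and side of the threshold. ITGA3 passed in both MEOX2 comparisons under every alternative except the overexpression fit on the U87 libraries alone. The called ITGB8 kept its direction throughout but was too low to be tested on FPKM. The causes of the changes below were not tested.

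Leaving out 1 library at a time gave 1065 to 8700 genes past the threshold in the knockdown (2622 with all 10), 1467 to 10932 in the overexpression (4375), 8100 to 13545 in the baseline comparison (9769) and 2129 to 10440 in the difference between lines (4112). The subunits past it were 2 to 6, 1 to 10, 6 to 10 and 2 to 9. The log2 fold changes that turned were, in the overexpression, ITGA2 (-0.26 to 1.39), ITGA6 (-0.13 to 0.67), ITGB1 (-0.092 to 2.02) and ITGB4 (-0.99 to 0.59), at baseline ITGA2 (-1.05 to 0.59), ITGB1 (-0.54 to 1.56) and ITGB3 (-1.55 to 1.31), and in the difference ITGA2 (-1.25 to 0.41), ITGA6 (-0.42 to 0.39), ITGAV (-0.20 to 1.19) and ITGB4 (-0.78 to 0.79). All but 1 of these turns came with EV replicate 1 or 2 left out, and ITGA2 at baseline also stood at 0.036 without NC replicate 1. The baseline difference in share spanned -9.34 to 17.5 points for ITGB1 among beta chains and -12.5 to 8.22 points for ITGB3 among partners of alphaV.

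Within 2 groups alone, 8687 genes and 7 subunits passed in the knockdown, 0 and 0 in the overexpression, where 2503 genes had an unadjusted p under 0.05 by edgeR and DESeq2 on all libraries called 5510, and 6425 genes at baseline. With a replicate block, 861 genes passed in the knockdown, 1908 genes and 2 subunits in the overexpression and 2068 genes and 2 subunits in the difference, while the subunits of the knockdown (2) and of the baseline (6) were unchanged in number. The numbers were not treated as pairs elsewhere, and the crossed pairing of the U87 numbers, chosen after seeing the data, gave 3470 genes and 4 subunits. With limma-voom and library weights, also chosen after seeing the data, 9320 genes and 7 subunits passed in the knockdown and 750 genes and 1 subunit in the overexpression. At baseline 2678 genes and 4 subunits passed, and in the difference 1841 genes and 3 subunits, where ITGB4 turned to 0.20.

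By limma on log2(FPKM + 1), 1 subunit passed in the knockdown, 2 in the overexpression and 1 in the difference, where 2754, 3950 and 4414 of 14343 genes did, and with a pseudocount of 0.1 it was 1 in each, where 2184, 3855 and 3907 genes did. At baseline 4 subunits passed with each pseudocount, where 7909 and 7867 genes did. ITGB3 turned to -0.22 and -0.47 at baseline with these, and in the difference ITGA6 to 0.092 and 0.23 and ITGB4 to 0.25 and 0.25. FPKM moved the split of calls, with 59.3% of the genes called in the knockdown higher, against 44.5% by counts, 60.3% against 43.0% in the overexpression and 33.6% against 50.6% at baseline, with medians of all genes at 0.05, 0.09 and -0.27. By the study's rule (p under 0.05 and over 2-fold), 5 subunits passed at baseline and 2 in the difference, where 7307 and 4711 genes did. From CPM in place of FPKM, the share difference of ITGA3 was -20.5 points in the overexpression and 16.7 at baseline.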
